A study of Homo sapiens with 9 samples.

Results

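The alpha-arrestins were followed across Rh30 cells grown as xenografts, as spheres and as adherent monolayers. The members are ARRDC1, ARRDC2, ARRDC3, ARRDC4 and TXNIP, and every probe set that the array annotation assigned to 1 of these symbols alone was taken, which gave 8 of the 54613 probe sets and 5 of the 19775 genes measured. ARRDC3 was selected on its difference between spheres and adherent cells on these arrays, and TXNIP was named beside it with results of the same arrays known. The values of ARRDC3 and TXNIP, and the comparison of spheres with adherent cells for all members, are therefore a description and carry no test. ARRDC1, ARRDC2 and ARRDC4 were tested in xenografts against adherent cells and in xenografts against spheres, and the tests against spheres share the sphere arrays on which ARRDC3 was selected.

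Rh30 is a human cell line of alveolar rhabdomyosarcoma, and all arrays came from this line, whose labelled genotype is positive for the PAX3-FOXO1 fusion protein. For the xenografts the sources differ. The labels describe Rh30 cells from adherent or sphere cultures placed under the skin of the flank of SCID/beige mice in Matrigel, and the methods describe adherent cells in PBS placed in the left gastrocnemius muscle. The spheres had spent 48 h in Neurobasal media to which insulin at 50 µg/ml and bFGF at 80 ng/ml were added beside EGF at 40 ng/ml and the B27 supplement at 1X. Adherent cells grew in RPMI medium with serum, so spheres and adherent cells differed in medium as well as in attachment. Each group had 3 arrays (Affymetrix U133 Plus 2.0), named biological triplicates in the methods, and all groups are a single cell line, so the tests speak for Rh30 alone.

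Values are log2 levels from RMA, a method that corrects the background, brings the arrays to a shared distribution and summarises each probe set. RMA gives no call of detection, and a level can be compared between groups at a probe set but not between probe sets. Arrays of the same group correlated at 0.990 to 0.998 across probe sets, and arrays of different groups at 0.965 to 0.987. The 6 markers of Rh30 measured, among them MYOD1 and DES, lay above the array median on all 9 arrays. Over all genes, the median xenograft difference was 0.08 from adherent cells and 0.13 from spheres, and the median sphere difference from adherent cells was -0.04, so member values stand against these shifts. The xenografts are bulk tissue, in which fewer cells of a type and less RNA per cell cannot be told apart, and the probes are human, so RNA of the mouse host is seen only by cross-hybridisation.

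Alpha-arrestins share the arrestin fold with the beta-arrestins and the VPS26 subunits of retromer. Through short PPxY motifs in their tails they bind ubiquitin ligases of the NEDD4 family and bring them to receptors and transporters, which are then ubiquitinated and taken in from the cell surface. TXNIP also binds reduced thioredoxin and blocks it, and it lowers glucose uptake through the transporter GLUT1. TXNIP and ARRDC4 are well known targets of MondoA and ChREBP, transcription factors that pair with MLX and respond to sugar phosphates. ARRDC3 handles the integrin beta4 subunit, and ARRDC1 drives the budding of small vesicles at the plasma membrane with TSG101.

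The sequence before the start site is shown for the 3 genes with the largest differences between spheres and adherent cells. It comes from RefSeq (GRCh38.p14), covers the 250 bases before the annotated start on the gene's strand and runs 5′ to 3′. Capitals mark matches, on either strand, to the CCAAT box (CCAAT), the forkhead motif (GTAAACA) and a spelling of the carbohydrate response element (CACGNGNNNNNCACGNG). MondoA and ChREBP read this element. No match overlapped another. The windows lie at chr1:145996580-145996829 on the minus strand for the outer start site of TXNIP, at chr15:97960453-97960702 on the plus strand for ARRDC4, and at chr5:91383318-91383567 and chr5:91380098-91380347 on the minus strand for the outer and inner start sites of ARRDC3.
TXNIP, start site 1: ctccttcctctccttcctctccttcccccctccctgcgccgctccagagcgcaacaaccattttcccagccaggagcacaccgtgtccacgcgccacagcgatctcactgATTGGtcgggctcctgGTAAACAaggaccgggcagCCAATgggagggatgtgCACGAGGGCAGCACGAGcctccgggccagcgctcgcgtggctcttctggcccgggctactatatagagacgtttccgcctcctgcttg
ARRDC4: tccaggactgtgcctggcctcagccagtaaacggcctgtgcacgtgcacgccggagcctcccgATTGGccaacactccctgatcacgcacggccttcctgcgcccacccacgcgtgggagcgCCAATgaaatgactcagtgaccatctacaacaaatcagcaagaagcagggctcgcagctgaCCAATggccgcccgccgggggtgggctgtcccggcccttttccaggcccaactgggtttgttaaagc
ARRDC3, start site 1: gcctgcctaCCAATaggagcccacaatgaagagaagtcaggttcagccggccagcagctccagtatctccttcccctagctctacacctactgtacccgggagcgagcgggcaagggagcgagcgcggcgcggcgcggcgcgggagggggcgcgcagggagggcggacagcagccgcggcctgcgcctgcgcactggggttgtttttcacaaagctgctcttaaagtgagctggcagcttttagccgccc
ARRDC3, start site 2: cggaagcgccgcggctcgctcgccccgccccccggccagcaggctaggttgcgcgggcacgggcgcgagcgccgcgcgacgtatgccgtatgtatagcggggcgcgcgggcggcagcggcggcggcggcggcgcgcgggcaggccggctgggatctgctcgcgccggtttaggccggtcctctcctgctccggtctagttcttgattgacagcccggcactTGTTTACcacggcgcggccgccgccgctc

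The TXNIP window held a carbohydrate response element match at -88 to -72 from the start, with CCAAT boxes at -140 to -136 and -105 to -101 and a forkhead match at -124 to -118 between them. The 250 bases before the start were searched in the same way in all 35116 RefSeq windows. Of these, 16 held the carbohydrate response element as spelled here, or 0.046%. This spelling was chosen with the members known, so nothing is read from its rarity or from the TXNIP match. ARRDC4 held 3 CCAAT boxes, at -187 to -183, -128 to -124 and -67 to -63, and 32.01% of all windows held at least 1. The inner start site of ARRDC3 had a forkhead match at -29 to -23, a motif found in 2.98% of windows, and its outer start site had a CCAAT box at -241 to -237. ARRDC1, at -80 to -76, and the inner start site of ARRDC2, at -93 to -89, had 1 CCAAT box each. The outer start site of ARRDC2 and the inner start site of TXNIP matched none of the 3 motifs. A match describes the letters only, and the absence of these letters in a window says nothing of a factor. ARRDC3 spans chr5:91368631-91383317 and TXNIP chr1:145992435-145996579 in this build, with ARRDC4 at chr15:97960703-97973833, ARRDC2 at chr19:18001124-18014102 and ARRDC1 at chr9:137605686-137615360.

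**Figure D1:**
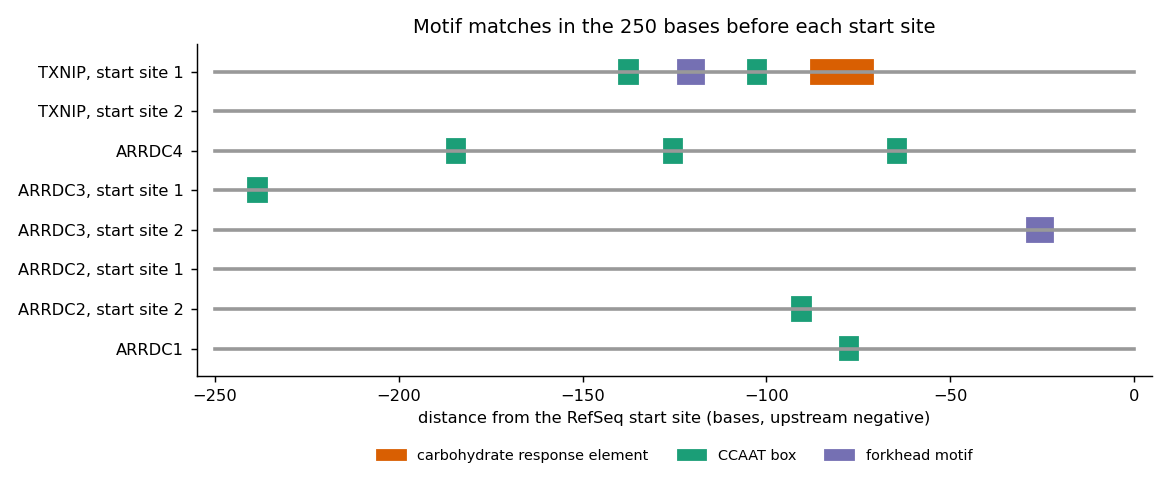
Motif matches in the 250 bases before each RefSeq start site of the 5 genes, with the distance from the start on the x axis (bases, upstream negative) and a row per start site. The carbohydrate response element match stands in the window of the outer TXNIP start site, and ARRDC4 has 3 CCAAT boxes.

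ARRDC3, which brings NEDD4 ligases to membrane proteins such as integrin beta4, was far higher in spheres than in adherent cells and stood between them in xenografts. Its probe set 224797_at read 7.59, 7.23 and 6.88 in xenografts, 9.84, 9.95 and 10.08 in spheres, and 6.26, 6.44 and 6.20 in adherent cells. The 3 groups did not overlap, and the lowest sphere array lay 3.40 above the highest adherent array. The difference between spheres and adherent cells was 3.66 (SE 0.16, n = 3 arrays per group), 12.6-fold, and was the 11th highest of 54613 probe sets. In xenografts the level was 1.91-fold that of adherent cells (log2 difference 0.94, SE 0.16), with a gap of 0.44 between the nearest arrays. Against spheres, the xenograft level was 0.152 times as high (log2 difference -2.72, SE 0.16). The order was spheres, xenografts, adherent cells, and each neighbour differed beyond the spread of its arrays. The xenograft arrays spanned 0.71, the sphere arrays 0.24 and the adherent arrays 0.24, so xenografts varied most. Without xenograft replicate 1 the difference between xenografts and adherent cells was 0.76, and without xenograft replicate 3 it was 1.11.

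TXNIP, the thioredoxin-binding member, was higher in spheres at each of its 3 probe sets. At 201010_s_at, its brightest probe set, xenografts read 10.52, 10.42 and 10.74, spheres 11.92, 12.16 and 12.11, and adherent cells 10.67, 10.58 and 10.79. The sphere arrays lay above all others, and xenografts and adherent cells overlapped. At 201009_s_at, xenografts read 9.26, 9.14 and 9.22, spheres 10.93, 11.07 and 11.03, and adherent cells 9.37, 9.41 and 9.51. At 201008_s_at, xenografts read 7.83, 7.91 and 7.82, spheres 9.68, 9.95 and 9.80, and adherent cells 8.25, 8.09 and 8.33. At these probe sets the xenograft arrays lay below the adherent arrays by gaps of 0.11 and 0.18.

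The level of TXNIP in spheres was 2.61-fold, 2.99-fold and 3.002-fold that of adherent cells at 201010_s_at, 201009_s_at and 201008_s_at, with log2 differences of 1.38, 1.58 and 1.59 (SE 0.11, 0.09 and 0.10). The xenograft level differed from the adherent level by -0.12, -0.22 and -0.37 at the same probe sets (SE 0.11, 0.09 and 0.10). Against spheres, xenografts differed by -1.50, -1.81 and -1.95, or 0.353, 0.286 and 0.258 times the sphere level. The probe sets gave the same order of spheres above the other groups and correlated with each other at 0.985 to 0.994 over the 9 arrays. They share the gene and the arrays and are not independent measurements. The order of TXNIP was spheres, adherent cells, xenografts, with the lower pair not separated at the brightest probe set.

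ARRDC4, the relative of TXNIP that is also a MondoA target, was set apart in spheres as well. Its probe set 225283_at read 5.82, 6.45 and 6.40 in xenografts, 8.22, 8.43 and 8.56 in spheres, and 6.32, 6.41 and 6.48 in adherent cells. Spheres did not overlap with either group, whereas xenografts and adherent cells overlapped and xenograft replicate 1 was the lowest of all arrays. The sphere level was 4.004-fold the adherent level (log2 difference 2.00, SE 0.16), the 233rd highest of 54613 probe sets. ARRDC4 entered by family membership, and its xenograft comparisons were tested, over all probe sets with limma. The members were chosen with earlier results of these data known, and the test against spheres shares the arrays on which ARRDC3 was selected. ARRDC4 fell in xenografts against spheres, to 0.221 times the sphere level (log2 difference -2.18, 95% confidence interval -2.53 to -1.84, adjusted p = 1.41e-06). No change of ARRDC4 was called in xenografts against adherent cells (log2 difference -0.18, interval -0.52 to 0.17, adjusted p = 0.436), and without xenograft replicate 1 the difference was 0.022 (adjusted p = 0.906).

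ARRDC2 varied little. Its probe set 226055_at read 5.10, 5.44 and 5.53 in xenografts, 5.58, 5.62 and 5.60 in spheres, and 5.44, 5.31 and 5.44 in adherent cells. Spheres were highest by narrow gaps, 0.14 to the nearest adherent array and 0.05 to the nearest xenograft array, and the other groups overlapped. The difference between spheres and adherent cells was 0.20 (SE 0.11), 1.15-fold. In xenografts the difference was -0.04 against adherent cells (interval -0.29 to 0.21, adjusted p = 0.833, limma) and -0.24 against spheres (interval -0.49 to 0.01, adjusted p = 0.110, limma). The comparison with spheres passed the threshold only when xenograft replicate 3 was left out (-0.33, adjusted p = 0.0437). Without xenograft replicate 1 the difference from adherent cells was 0.09 (adjusted p = 0.501, limma).

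ARRDC1, the member that buds vesicles with TSG101, was read by a pair of dim probe sets that did not give the same order. At 226405_s_at, xenografts read 4.49, 4.46 and 4.83, spheres 4.45, 4.20 and 4.26, and adherent cells 4.43, 4.29 and 4.29. Here the xenografts were highest, by 0.03 over the nearest adherent array and 0.01 over the nearest sphere array, and spheres and adherent cells overlapped. At 234607_at, xenografts read 4.37, 4.37 and 4.39, spheres 4.36, 3.94 and 4.01, and adherent cells 4.37, 4.51 and 4.57. Spheres were lowest there, by 0.01 to the nearest array of each other group, and xenografts and adherent cells overlapped. The probe sets stood at the 43.0 and 41.5 percentiles of mean brightness over all probe sets, and their correlation over the 9 arrays was 0.358.

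The xenografts differed from adherent cells by 0.25 at 226405_s_at (interval -0.01 to 0.51, adjusted p = 0.144) and by -0.11 at 234607_at (interval -0.36 to 0.15, adjusted p = 0.533, limma). Against spheres, xenografts differed by 0.29 (interval 0.03 to 0.55, adjusted p = 0.0721) and 0.28 (interval 0.02 to 0.53, adjusted p = 0.0802, limma). Neither passed the threshold on all arrays, and both passed it without sphere replicate 1 (adjusted p = 0.0489 for 226405_s_at and 0.0109 for 234607_at). The spheres differed from adherent cells by -0.04 (SE 0.12) and -0.38 (SE 0.12).

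**Figure D2:**
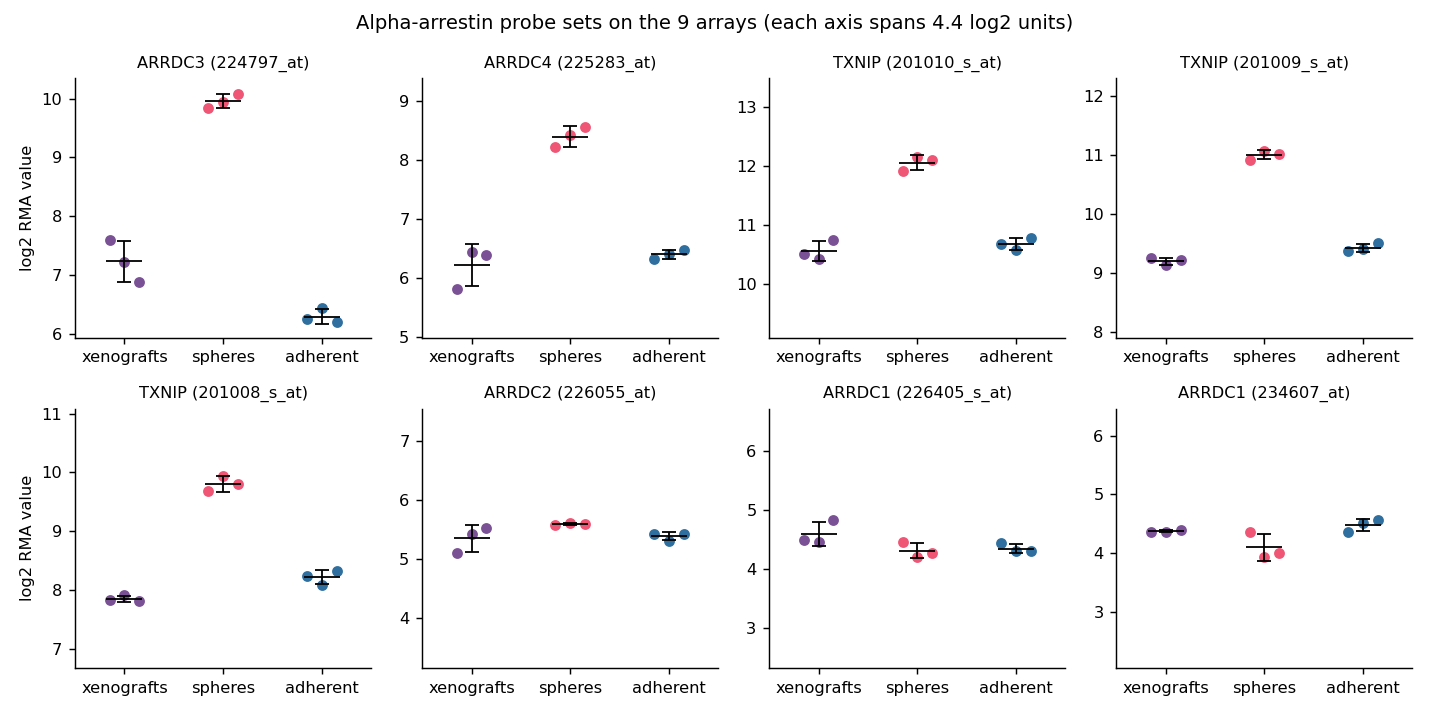
Log2 RMA level of the 8 alpha-arrestin probe sets on each array (y axis), with xenografts, spheres and adherent cells from left to right. Points are arrays, horizontal lines are means and bars are the SD (n = 3), and each panel spans the same log2 range. The sphere arrays stand above the others for ARRDC3, ARRDC4 and the 3 TXNIP probe sets, and by narrow gaps for ARRDC2. The xenografts stand above adherent cells for ARRDC3.

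Counted over the family, 6 of the 8 probe sets were higher in spheres than in adherent cells without overlap of the arrays, 1 was lower and 1 overlapped, and 41.6% of all probe sets did not overlap in that comparison. The median difference of the 8 was 1.48, against -0.02 over all probe sets. As ARRDC3 was picked in this comparison, nothing is read from the count. In xenografts against adherent cells, 2 probe sets were higher, 2 were lower and 4 overlapped, where 38.5% of all probe sets did not overlap. The median of the 8 was -0.11, against 0.07. Of the 4 probe sets of ARRDC1, ARRDC2 and ARRDC4, 0 were called there by limma, against 23.0% of all probe sets, and 0 had an unadjusted p under 0.05 by limma or by an unpaired test on the compared arrays. In xenografts against spheres, 6 were lower, 2 were higher and 0 overlapped, where 47.4% of all probe sets did not overlap. The median of the 8 was -1.65, against 0.10. Both values include ARRDC3 and TXNIP on the sphere arrays in which ARRDC3 was picked, so nothing is read from them either. Of the 4 probe sets of ARRDC1, ARRDC2 and ARRDC4, 1 was called in xenografts against spheres, ARRDC4, where 39.1% of all probe sets were called. The comparisons against adherent cells share the adherent arrays, and those with spheres share the sphere arrays.

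**Figure D3:**
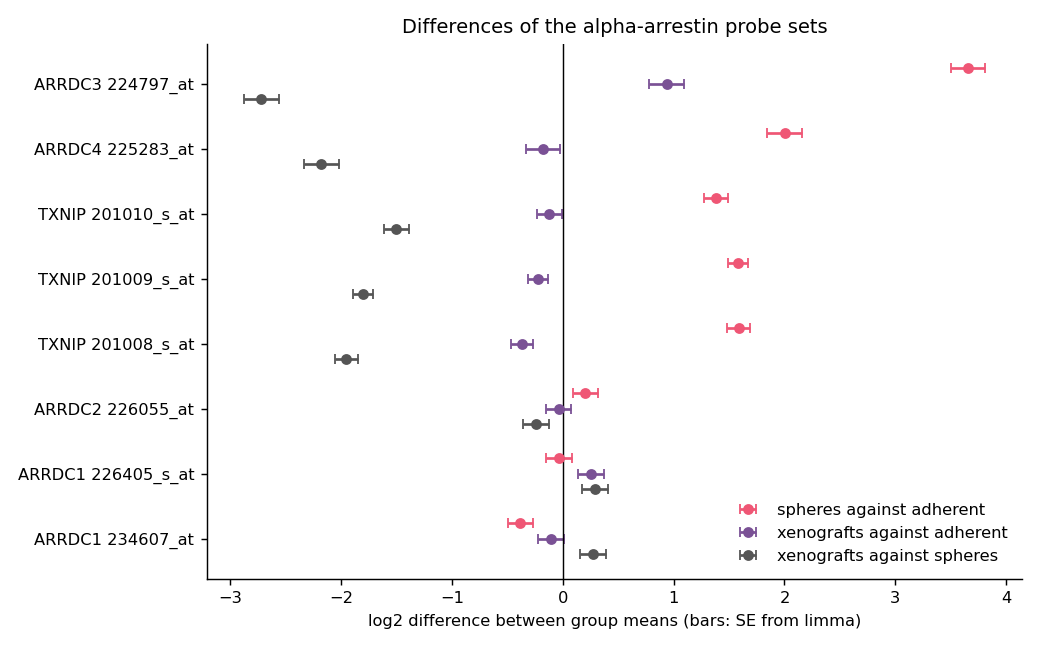
Log2 difference between group means for each alpha-arrestin probe set (x axis), with spheres against adherent cells, xenografts against adherent cells and xenografts against spheres drawn in turn. Bars are the SE from limma. ARRDC3 is the member with a difference above 0 both in spheres (3.66) and in xenografts (0.94) that exceeds its SE severalfold, and the xenograft differences of ARRDC4 and TXNIP from adherent cells lie between -0.37 and -0.12.

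Over the 9 arrays, ARRDC4 followed TXNIP closely, with correlations of 0.978 to 0.980 with its 3 probe sets. ARRDC3 correlated at 0.913 with ARRDC4 and at 0.897 to 0.927 with TXNIP. ARRDC2 correlated at 0.550 with ARRDC3, 0.783 with ARRDC4 and 0.674 to 0.726 with TXNIP. The ARRDC1 probe set 234607_at ran the other way, at -0.756 to -0.819 with ARRDC3, ARRDC4 and TXNIP. The brighter ARRDC1 probe set, 226405_s_at, did so more weakly, at -0.332 to -0.558 with the same genes. The arrays fall into 3 groups and these values mostly follow the group means, so they describe likeness and carry no p. Among 12679 genes with a mean level above the median of all probe sets, those most like ARRDC3 were H6PD, an enzyme that makes NADPH in the endoplasmic reticulum (r = 0.993), the non-coding RNA LINC00467 (0.992), ZFAND1 (0.992), CCNB1IP1 (0.992) and TSC22D1 (0.991). LINC00467 averaged 7.87 ± 0.05 in xenografts, 9.26 ± 0.10 in spheres and 7.40 ± 0.03 in adherent cells (SD, n = 3 each). Those most like TXNIP were MOV10, an RNA helicase (0.992), ZNF709 (0.991), MRFAP1L2 (0.990), LINC01138 (0.990) and ERN1, which encodes the endoplasmic reticulum stress sensor IRE1 (0.990). ERN1 averaged 5.87 ± 0.30 in xenografts, 7.74 ± 0.03 in spheres and 5.95 ± 0.11 in adherent cells (SD, n = 3 each).

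Measures of RNA quality and of cell types stand beside these values. The 3′ probe set of ACTB exceeded its 5′ probe set by 2.48 ± 0.23 in xenografts, 3.20 ± 0.09 in spheres and 2.39 ± 0.30 in adherent cells, and that of GAPDH by 0.53 ± 0.11, 0.62 ± 0.05 and 0.54 ± 0.13 (log2, SD, n = 3 each). A larger value means fewer 5′ ends in the labelled RNA, and its part in the sphere values was not tested. Of 6 markers of fibroblasts and stroma, 5 rose and 1 fell in xenografts against adherent cells, where 12.6% of all genes rose and 14.3% fell. Their mean level was 6.76 to 7.30 in xenografts and 6.005 to 6.18 in adherent cells. Of these markers, 3 lay above the array median on all 9 arrays, also on those of adherent cells, which had no host. Their part in the xenograft value of ARRDC3 was not tested. Of 4 markers of leukocytes and macrophages measured, 0 lay above the array median on all arrays, with mean levels of 3.68 to 3.94 in xenografts and 3.67 to 3.76 in adherent cells. Of 6 markers of adult skeletal muscle, 2 rose and 1 fell in xenografts, with mean levels of 4.66 to 5.03 in xenografts and 4.42 to 4.46 in adherent cells. Among them MYH4, a fast myosin heavy chain, averaged 4.70 ± 0.29 in xenografts and 2.30 ± 0.18 in adherent cells (SD, n = 3 each, 5.28-fold, adjusted p = 1.58e-06, limma). Both means of MYH4 lay below the array medians. MYH1 also rose, by 0.45, from 2.25 in adherent cells to 2.70 in xenografts, means that also lay below the array medians. MB fell by 0.99, and CKM, MYH2 and TNNT3 were not called. In spheres against adherent cells CKM rose by 0.88, MB fell by 1.03 and the other muscle markers were not called. Of the 6 Rh30 markers, 3 fell in spheres against adherent cells, MYOG by 0.91, CDH3 by 0.89 and DES by 0.38, with mean levels of 9.49 to 9.52 in spheres and 9.91 to 10.02 in adherent cells. In xenografts 1 of the 6 rose and 1 fell. Markers of endothelial cells, blood and adipocytes had 1 rise each in xenografts, of 5, 2 and 4 measured. The part of these markers in the member values was not tested. The antisense transcripts ARRDC3-AS1 and ARRDC1-AS1, which have probe sets of their own, had no called difference in any of the 3 comparisons (adjusted p between 0.227 and 0.898, limma). ARRDC3-AS1 averaged 5.596 ± 0.21 in xenografts, 5.53 ± 0.16 in spheres and 5.37 ± 0.11 in adherent cells (SD, n = 3 each).

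The genes that work with alpha-arrestins were counted from 7 lists, with each gene read at its brightest probe set and called by limma at an adjusted p under 0.05. In spheres against adherent cells, 13.5% of all genes rose and 16.3% fell. In xenografts against adherent cells, 12.6% rose and 14.3% fell, and against spheres 25.7% rose and 18.3% fell in xenografts. The other arrestin-fold genes were mostly lower than in adherent cells. Of 6 measured, 4 fell in xenografts and the other 2 were not called, and in spheres 4 fell and 1 rose, with medians of -0.42 in xenografts and -0.49 in spheres. The rise in spheres was lost without any 1 of 5 arrays (adherent replicates 2 and 3, sphere replicates 1 and 3 and xenograft replicate 2), and the 4 falls in spheres kept their number. ARRB1, the beta-arrestin that ends signalling by G protein-coupled receptors, averaged 9.43 in xenografts, 8.87 in spheres and 10.50 in adherent cells (log2 difference in spheres -1.63, SE 0.11, adjusted p = 1.48e-06, and in xenografts -1.07, SE 0.11, adjusted p = 6.88e-05, limma). VPS26B, a retromer subunit, fell by 0.90 in spheres and by 0.54 in xenografts (SE 0.11 each). The median of all genes was 0.08 in xenografts and -0.04 in spheres.

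Of the ligases that alpha-arrestins recruit, most of those called were lower in xenografts. Of 11 NEDD4 family ligases and adaptors, 2 rose and 6 fell in xenografts against adherent cells, with a median of -0.35. The count of rises was 2 without xenograft replicate 3, 1 without adherent replicate 2, sphere replicate 1 or xenograft replicate 2, and 0 without any 1 of the other 5 arrays. The count of falls was 5 to 7, and 5 genes were called in all without adherent replicate 1 or 3 or sphere replicate 2 or 3. NEDD4 averaged 6.99 in xenografts and 8.23 in adherent cells (log2 difference -1.25, SE 0.13, adjusted p = 5.30e-05, limma), and WWP1, another ligase of the family, fell by 1.16 (SE 0.12). In spheres 2 rose and 2 fell, with a median of -0.08, and 1 fell without adherent replicate 2 or 3 or sphere replicate 2 or 3. NDFIP1, a membrane adaptor that activates these ligases, averaged 9.87 in spheres and 8.33 in adherent cells (log2 difference 1.54, SE 0.13, adjusted p = 7.08e-06, limma), and NEDD4L rose by 0.50 (SE 0.09). Against spheres, 1 of the 11 rose and 8 fell in xenografts, with a median of -0.55, and 2 rose and 9 fell without xenograft replicate 1. Of 6 ESCRT genes that ARRDC1 vesicles draw on, 0 were called in spheres by limma (0 at an unadjusted p under 0.05, and 1 by an unpaired test on the compared arrays), and 1 rose in xenografts. It was VPS4A, the ATPase that takes ESCRT filaments apart, at 8.79 in xenografts and 8.31 in adherent cells (log2 difference 0.48, SE 0.11, adjusted p = 0.0109, limma), a call that ended without adherent replicate 1 (0.40, adjusted p = 0.0504), and 2 rose without xenograft replicate 3. In spheres, 1 ESCRT gene fell without xenograft replicate 1.

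The glucose-sensing factors and their targets moved in both directions. Of 8 genes, 2 rose and 2 fell in spheres, and 1 rose and 1 fell in xenografts against adherent cells, with medians of -0.05 and 0.16. Without xenograft replicate 1, 2 rose and 1 fell in xenografts. MLXIP, which encodes MondoA, averaged 8.79 in xenografts, 8.73 in spheres and 9.63 in adherent cells, and it fell by 0.84 in xenografts (SE 0.10) and by 0.90 in spheres (SE 0.10). KLF10, a target of these factors, rose by 0.97 in spheres (SE 0.18, adjusted p = 0.0014, limma). HK2, the hexokinase that makes glucose 6-phosphate, averaged 10.13 in xenografts, 10.28 in spheres and 9.42 in adherent cells (log2 difference 0.72 in xenografts and 0.87 in spheres, SE 0.12 each).

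The thioredoxin system, to which TXNIP binds, was mostly lower in spheres. Of 10 genes measured, 1 rose and 6 fell in spheres against adherent cells, with a median of -0.62. Thioredoxin itself, TXN, averaged 11.78 in xenografts, 11.61 in spheres and 11.65 in adherent cells (log2 difference in spheres -0.05, SE 0.11, adjusted p = 0.833, limma). The peroxidase PRDX2, which thioredoxin reduces, fell by 1.37 in spheres (SE 0.14), and MAP3K5, the kinase ASK1 that thioredoxin restrains, fell by 1.34 (SE 0.09). NLRP3, the inflammasome sensor to which TXNIP has been reported to bind, was the member that rose, at 5.76 in spheres and, below the array median, 3.29 in adherent cells (log2 difference 2.46, SE 0.13, adjusted p = 1.79e-07, limma). In xenografts 3 rose and 3 fell against adherent cells, with a median of 0.04. Without adherent replicate 1 these counts were 0 and 3, without adherent replicate 2 they were 1 and 2, and without xenograft replicate 2 or 3 they were 1 and 3. TXNRD2, the mitochondrial thioredoxin reductase, fell by 1.01 in xenografts (SE 0.15). Against spheres, 6 rose and 1 fell in xenografts.

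The membrane proteins that alpha-arrestins handle moved in both directions. Of 8 measured, 1 rose and 3 fell in spheres, and 3 rose and 3 fell in xenografts against adherent cells, with medians of -0.18 and 0.17. Without adherent replicate 1, 3 rose and 1 fell in xenografts, and without xenograft replicate 1 or 3, 2 rose and 3 fell in spheres. SLC2A1, which encodes GLUT1, averaged 7.83 in xenografts, 8.29 in spheres and 7.31 in adherent cells (log2 difference 0.98 in spheres and 0.52 in xenografts, SE 0.13 each). NOTCH1, a receptor that is sorted with ITCH, averaged 8.65 in xenografts, 5.63 in spheres and 8.08 in adherent cells (log2 difference -2.44 in spheres, SE 0.11, adjusted p = 9.18e-08, limma). This value, from the brightest NOTCH1 probe set after 48 h in sphere culture, runs against the paper's RT-PCR. There, by a semi-quantitative measure, NOTCH1 was reported as increased in passaged spheres of Rh28 and Rh30. The paper describes the increases of its Notch genes as larger in Rh28. The arrays hold Rh30 alone, and the cause of the disagreement was not tested. F2R, which encodes the thrombin receptor PAR1 that ARRDC3 sorts, fell by 1.30 in xenografts (SE 0.22).

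FOXO factors and their target genes also moved both ways. Of 17 genes, 5 rose and 4 fell in spheres and 4 rose and 4 fell in xenografts against adherent cells, with medians of 0.14 and 0.07. FOXO1 fell in both (log2 difference -0.53 in spheres and -0.56 in xenografts, SE 0.10 each). Whether its probe set also reads the transcript of the PAX3-FOXO1 fusion was not tested. The xenograft counts were 2 and 3 without adherent replicate 1, 4 and 2 without adherent replicate 2, 1 and 3 without adherent replicate 3, and 1 and 4 without xenograft replicate 1. FOXO6 fell by 1.32 in spheres (SE 0.09), and CCNG2, a FOXO target that encodes cyclin G2, averaged 11.38 in xenografts, 11.92 in spheres and 10.84 in adherent cells (log2 difference in spheres 1.08, SE 0.15, adjusted p = 0.000169, limma). PDK4, the kinase that shuts pyruvate dehydrogenase, averaged 5.29 in xenografts, 4.59 in spheres and 4.17 in adherent cells (log2 difference in xenografts 1.12, SE 0.17, adjusted p = 0.000797, limma). Its sphere and adherent means lay below the array medians. No list was compared with other lists, and a list share near the share of all genes says nothing particular of the list.

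**Figure D4:**
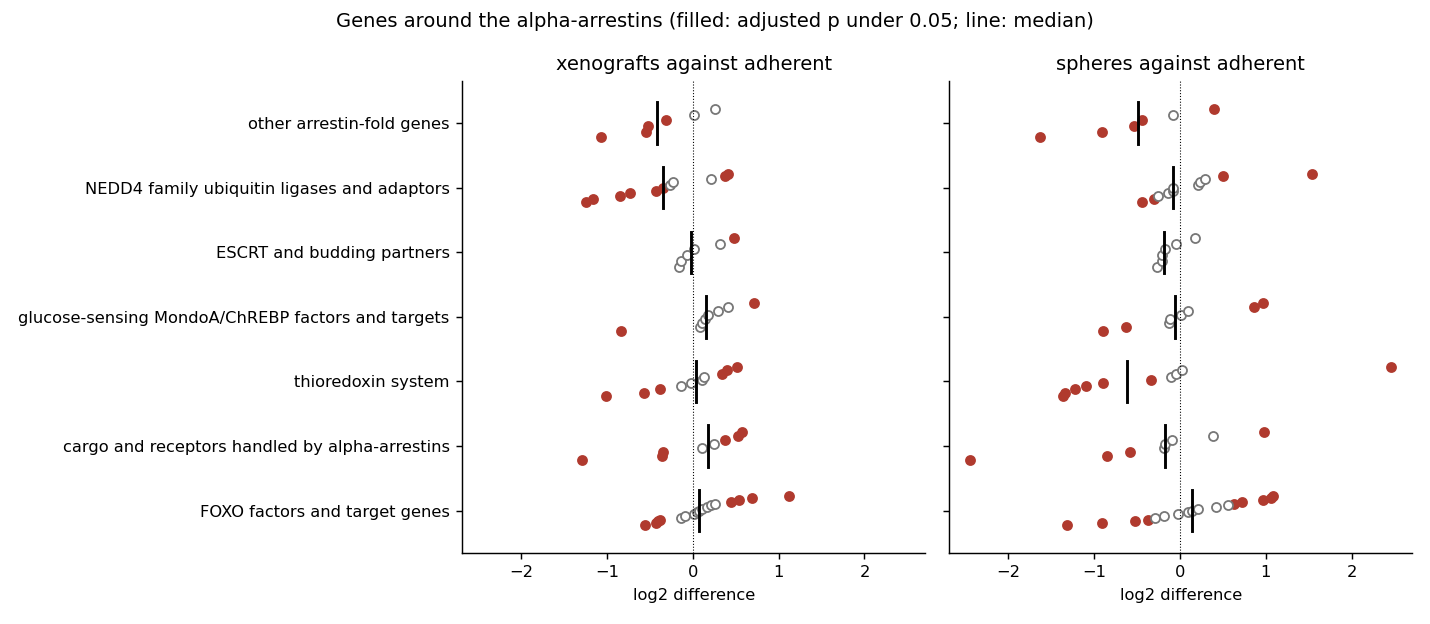
Log2 difference of the genes of 7 lists around the alpha-arrestins, in xenografts against adherent cells (left) and in spheres against adherent cells (right). Each point is a gene, filled where the adjusted p was under 0.05 in limma, and black lines are list medians. The median of the thioredoxin system is -0.62 in spheres and 0.04 in xenografts.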

How the data were processed

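RNA from 3 xenografts, 3 sphere cultures and 3 adherent cultures was hybridised to 9 Affymetrix U133 Plus 2.0 arrays. The deposited log2 RMA values, 1 for each probe set, were used. The authors had normalized the arrays together. The RMA version is not given in the sources used here, and array medians lay between 4.78 and 4.87. The 62 control probe sets were left out. For the other 54613, a linear model with a mean for each group, which leaves 6 residual degrees of freedom, was fitted in limma (version 3.58.1, under R 4.3.3), with moderated variances from eBayes. Benjamini-Hochberg adjustment ran across every fitted probe set, at a threshold of 0.05. Of these probe sets, 41091 had 1 current gene symbol, 1801 several and 11721 none. A gene was read at its brightest single-symbol probe set.

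The text names every member probe set, called genes of each list with the largest differences (up to 4 per list and contrast by the rule, fewer where space is short, plus TXN, which was named after its value was seen), and the 5 genes most like ARRDC3 and TXNIP by Pearson's r among genes with a mean level above the median. Members, lists, markers and motifs were chosen with earlier results of these data known. The lists were other arrestin-fold genes, NEDD4 ligases and adaptors, ESCRT genes, MondoA/ChREBP genes, the thioredoxin system, cargo, and FOXO genes. Of the listed genes, ARRDC5, ARRB2, PDCD6IP, TXNRD3 and PRDX5 had no single-symbol probe set used here, and 1 further listed gene is not reported here. Promoter windows are from RefSeq tables (GRCh38.p14). Alternatives were other scalings, dropping dim probe sets, fits restricted to the groups compared, other variance models, array weights and a replicate block. Further ones were an unpaired t-test, an added 2-fold threshold, the mean of a gene's probe sets, and leaving out each array. The paper's methods list an unpaired t-test among its general statistics and name no test for the arrays. The number of arrays limits the precision.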

Additional observations from a re-analysis of the deposited data

How the results depend on the processing

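The differences of ARRDC3 kept their direction under every alternative run. With each array left out, the sphere difference from adherent cells was 3.59 to 3.73, the xenograft difference from adherent cells 0.76 to 1.11, and that from spheres -2.90 to -2.54. Those of TXNIP were 1.33 to 1.45, -0.21 to -0.052 and -1.59 to -1.43, and the mean over its 3 probe sets gave -1.75 in xenografts against spheres and 1.52 in spheres against adherent cells. Of the 4 probe sets of ARRDC1, ARRDC2 and ARRDC4, 0 were called in xenografts against adherent cells with any array left out and 1 to 3 in xenografts against spheres, 3 without sphere replicate 1 and 2 without xenograft replicate 3. The difference of ARRDC4 between xenografts and adherent cells was -0.29 to 0.022 with each array left out, the sign changing without xenograft replicate 1 (adjusted p = 0.906, limma). That of ARRDC2 was -0.127 to 0.0896, its sign also changing without xenograft replicate 1 (adjusted p = 0.501, limma).

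Over all probe sets, 14185 were called in spheres and 12561 in xenografts against adherent cells, and 21330 in xenografts against spheres. With each array left out these counts were 11391 to 15595, 8057 to 13825 and 15906 to 21775, and the count of 8057 came without adherent replicate 2. An added 2-fold threshold left 3019, 1507 and 3957. An unpaired t-test on the compared arrays called 12203, 4826 and 10414 after adjustment and 18699, 15298 and 20133 at an unadjusted p under 0.05. With the replicate block the counts were 13562, 11273 and 20294, and member calls numbered 0 in xenografts against adherent cells and 1 against spheres, as without it. Arrays share only a replicate number. Correlations of deviations between arrays with the same number were -0.18 to 0.18, and 2 of 9 arrays were closest to the same number. For counts over the lists under the alternatives other than leaving out an array, 173 stayed within 1.5 times, 31 gave fewer calls and 6 gave more. In refits of the listed genes with the largest differences, counted as a gene in a comparison under an alternative, the call was kept 340 times and lost 18 times. These refits covered only the comparisons against adherent cells, and of the left-out arrays only that with the highest adjusted p. Calls outside these refits were lost too, such as CCNG2 in xenografts against adherent cells without adherent replicate 1 (log2 difference 0.51, adjusted p = 0.0686, limma). The cause was not tested.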
